A study of Mus musculus with 4 samples.

Results

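The proteasome and chaperone genes examined here are those whose names in the deposited table of reproducible pSTAT3 regions begin with Psma, Psmb, Psmc, Psmd, Psme, Dnaj or Hsp, or with Cct followed by a digit. A total of 71 of the 15255 gene names in that table qualified after 4 pseudogene names were dropped, and 102 of its 12925 regions were listed for them. They comprised 10 genes of the proteasome core (Psma and Psmb), 14 of the regulatory particle by name (Psmc and Psmd), 3 proteasome activators (Psme), 21 J-domain proteins (Dnaj), 16 heat shock proteins by name (Hsp) and 7 chaperonin subunits (Cct). The prefix takes in some genes that are no subunit or chaperone: Psmc3ip encodes a meiotic recombination factor and Hspb11 a protein of intraflagellar transport.

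The proteasome degrades ubiquitin-tagged proteins: alpha and beta subunits form its barrel-shaped core, ATPase and non-ATPase subunits form the cap that recognises and unfolds substrates, and Psme proteins form an alternative cap. Chaperones of the Hsp70 and Hsp90 families fold and refold proteins, J-domain proteins deliver clients to Hsp70, small heat shock proteins hold unfolded clients, and the Cct complex folds actin and tubulin. Immunoproteasome subunits and Psme1 and Psme2 are known as interferon-induced genes, and many Hsp genes as targets of heat shock factor; oligodendrocyte lineage cells carry a heavy load of protein synthesis for myelin.

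Tyrosine-phosphorylated STAT3 (pSTAT3, Y705) was mapped by chromatin immunoprecipitation and sequencing (ChIP-seq) in cultured oligodendrocyte progenitors, primary cells from the cortex of the mouse strain C57BL/6. These are the dividing cells from which myelin-forming oligodendrocytes arise. All cells, those of the inputs included, were kept in 10 ng/ml PDGF-AA with 20 ng/ml bFGF and exposed to the cytokine CNTF at 100 ng/ml for 15 min. There were 2 pSTAT3 ChIP libraries and 2 input libraries. No untreated cells are among these samples, so what follows describes where pSTAT3 was found, not what CNTF changed, and no RNA was measured. The peak lists held 42189 peaks in replicate 1 and 26649 in replicate 2, with a lowest caller background of 4.72 and 2.91 fragments, the only measure of depth in these lists. Separate cultures are not named for the replicates and lysates were pooled, so the difference between replicates may reflect technical variation alone. Fold enrichments are the authors' peak values over local background, the strongest overlapping peak of each replicate being taken for a region, and the lower of both is called the lower fold. A region was placed by its midpoint, against the nearest start of the gene's transcripts in the authors' table.

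Of the 71 members, 34 had a region within 5 kb of a start, which is 47.9% of them. Over the 9298 protein-coding genes in the same table the share was 42.6%. Within 1 kb there were 31 members, or 43.7%, beside 30.1% of all protein-coding genes in the table. Set against the reference annotation, in which the prefixes take in 130 protein-coding genes, 34 genes are 26.2%, beside 18.1% of 21887 protein-coding genes. No test of these differences was made, and the 5 kb share lies close to that of all genes. Another 24 members had their nearest region between 5 and 25 kb away and 13 had their nearest region beyond 25 kb. These distances were not counted over all genes, so they describe the members only. With the peaks of 1 library in place of regions, a summit lay within 5 kb of a listed start in 54 members (76.1%) in replicate 1, in 46 (64.8%) in replicate 2 and in 44 (61.97%) in both. Over the 9298 protein-coding genes of the table these shares were 71.7%, 57.7% and 56.5%. The closest cases to the 5 kb limit were regions 4851 bp from Psmb6 and 4845 bp from Hspa8 inside it, and 5330 bp from Hspa8 and 5436 bp from Hspb8 outside it.

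The counts by group were small, and no test between groups was made. A region lay within 5 kb of 14 of 21 Dnaj members (66.7%), 8 of 16 Hsp members (50%) and 2 of 3 Psme members (66.7%). The count was 6 of 14 for Psmc and Psmd and 3 of 7 for Cct, 42.9% each. It was 1 of 10 for Psma and Psmb (10%). Over all protein-coding genes in the table the share was 42.6%, near that of Psmc and Psmd, Cct and Hsp. The single core gene was Psmb6, so no core gene had a region within 1 kb of a start. The separate peak lists, given below, held peaks near more core genes.

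**Figure D1:**
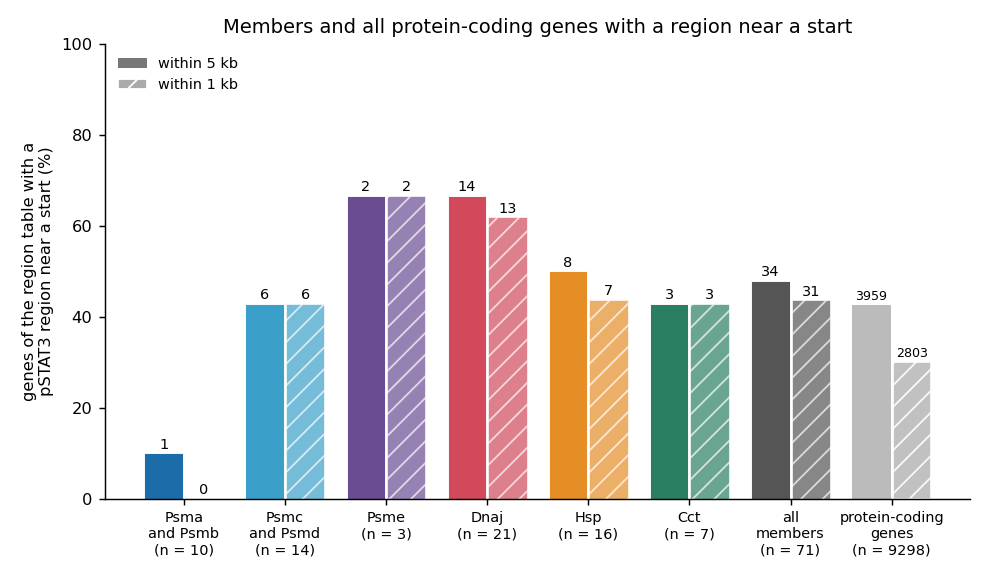
Share of genes in the region table (y axis, percent) with a pSTAT3 region within 5 kb (plain bars) or 1 kb (hatched bars) of a start, for each gene group, all members and, at the right, all protein-coding genes of the table; numbers above the bars count genes. The Dnaj group reaches 14 of 21 genes and the Psma and Psmb group 1 of 10.

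Where a member had a region within 1 kb, the region mostly covered the start. Its midpoint was within 300 bp of the start for 25 of 31 members, at a median of 133 bp, and the region covered the start in 26. The exceptions were Dnaja2, Dnajb11, Dnajc14, Hspa2 and Hspb6. The midpoint was upstream in 20 and downstream in 11. These counts, and that of nearer starts below, were made for members only, so they are not shown to be particular to them. Many of these starts face another gene: 14 of the 29 member regions within 1 kb, or 48.3%, had starts on both strands within 1 kb, beside 526 of 3092 such regions in the whole table, or 17.0%. Another gene's start was nearer than the member's own for 9 of the 31 members, and for those the table does not tell to which gene a region belongs.

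Promoter sequences were available for 56 of the 71 members and for 26 of the 34 with a region within 5 kb, from RefSeq on GRCm38.p6, each running from 250 bases before to 50 bases after a start. Windows of 19 members, 26 windows in all, overlapped a region. The gapped palindrome TTCNNNGAA, the textbook STAT element, was searched on both strands; it stood in 8.30% of all 32851 windows, in 15.0% of the 2488 windows that overlapped a region and in 2 of the 26 member windows that did. The 2 genes were Dnajc13 and Psmd2, and their stretches are shown first. A window can overlap a region without holding its summit. In replicate 1 the summit lay outside every overlapping window of Cct3, Cct7, Dnaja3, Dnajb1, Dnajb11, Dnajc7, Dnajc24, Psmc6, Psmd9 and Psme2. It lay inside a window of each of the other genes. Psmd3, Hspa8 and Hsp90aa1 had no promoter sequence. The 2 of 26 therefore do not show whether member summits lack the element. Windows holding a summit were not counted for the 2488. The heat shock element was searched as 2 units (GAANNTTC or TTCNNGAA) and as 3 units (GAANNTTCNNGAA or TTCNNGAANNTTC), on both strands. The form with 2 units stood in 15.1% of all windows, in 13.8% of those that overlapped a region, and in 3 of the 26 member windows, those of Dnaja1, Hspd1 and Hspe1. The form with 3 units stood in 0.603% of all windows and in 0.402% of those that overlapped a region. Among the 26 it stood in those of Hspd1 and Hspe1, which share the same bases. No match of one element overlapped a match of the other. Capitals mark the STAT element in Dnajc13 and Psmd2 and the heat shock units in Hspe1 and Dnaja1. Psme1 is shown because its window overlaps one of the strongest member regions without either element. Each runs 5′ to 3′ on the gene's strand.
Dnajc13, chr9:104262931-104263150, minus strand: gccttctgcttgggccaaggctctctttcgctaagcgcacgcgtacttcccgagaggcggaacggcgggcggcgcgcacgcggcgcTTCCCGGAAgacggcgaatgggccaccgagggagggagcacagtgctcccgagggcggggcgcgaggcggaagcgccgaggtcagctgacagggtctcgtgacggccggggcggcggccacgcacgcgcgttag
Psmd2, chr16:20651572-20651671, plus strand: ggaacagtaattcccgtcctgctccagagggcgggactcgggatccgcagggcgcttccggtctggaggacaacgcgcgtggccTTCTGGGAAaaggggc
Hspe1, chr1:55087998-55088147, plus strand: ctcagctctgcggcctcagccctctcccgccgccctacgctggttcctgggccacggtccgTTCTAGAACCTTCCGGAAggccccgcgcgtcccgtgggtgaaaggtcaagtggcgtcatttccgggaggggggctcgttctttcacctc
Dnaja1, chr4:40722248-40722467, plus strand: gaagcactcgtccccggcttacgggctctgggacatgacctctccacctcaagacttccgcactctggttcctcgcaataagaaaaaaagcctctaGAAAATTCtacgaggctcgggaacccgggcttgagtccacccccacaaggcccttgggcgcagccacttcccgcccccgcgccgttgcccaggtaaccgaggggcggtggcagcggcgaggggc
Psme1, chr14:55578244-55578493, plus strand: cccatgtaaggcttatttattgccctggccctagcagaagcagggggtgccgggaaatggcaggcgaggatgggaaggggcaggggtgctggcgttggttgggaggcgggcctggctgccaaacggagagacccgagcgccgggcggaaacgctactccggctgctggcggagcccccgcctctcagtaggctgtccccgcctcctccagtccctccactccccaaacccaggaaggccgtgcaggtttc

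In Dnajc13 the element TTCCCGGAA began 134 bp before the start, and its centre was 12 bp from the replicate 1 summit and 4 bp from the replicate 2 summit. In Psmd2 the element TTCTGGGAA began just past the start, and its centre was 55 bp and 3 bp from the summits. Over all promoter windows with the STAT element under a region, the median gap to the summit was 25 bp in replicate 1 and 24 bp in replicate 2. The gap for the heat shock element of 2 units was 40.5 bp and 47.5 bp over all windows. In Hspe1 the first such unit pair, TTCTAGAA, lay 14.5 bp and 29.5 bp from the summits, and in Dnaja1 the pair GAAAATTC lay 143.5 bp and 134.5 bp from them. Member windows that overlapped a region had a median GC content of 66.3% and 26.5 CpG dinucleotides, beside 60.7% and 21 for all windows that overlapped a region. A match is a run of letters, not evidence of a bound site.

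The 36 member regions within 5 kb were of ordinary strength for this table. The median value was 9.35-fold in replicate 1 and 6.88-fold in replicate 2, beside 10.4 and 7.51 over the 5005 regions within 5 kb of any start. The median lower fold was 6.88 for member regions, with a range of 2.82 to 36.3, beside 7.45 for all 5005. A lower fold of at least 20 was reached by 4 of 36 member regions, or 11.1%, beside 7.69% of all. The irreproducible discovery rate (IDR), the authors' measure of agreement between replicates, was at most 0.01 in 24 member regions, or 66.7%, beside 79.3% of all.

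**Figure D2:**
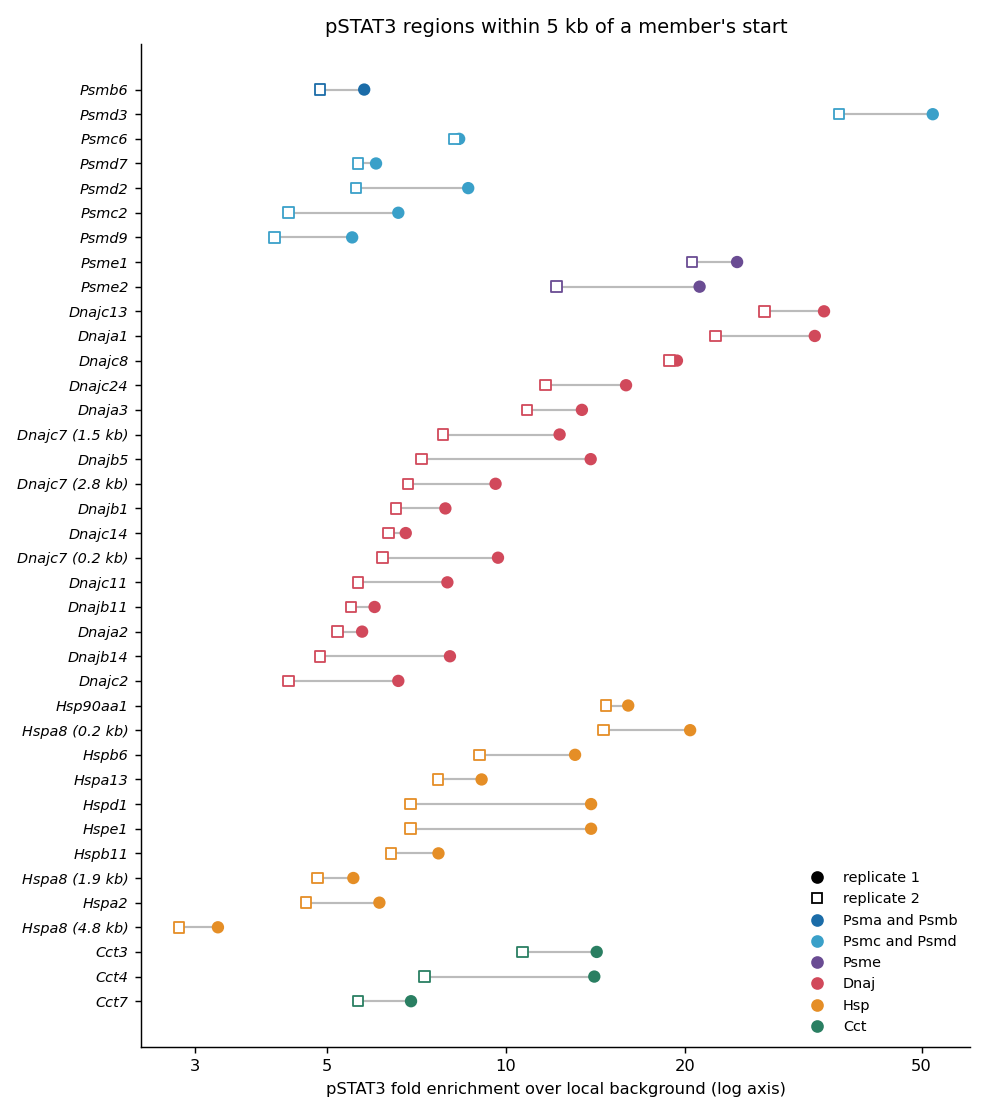
Fold enrichment of pSTAT3 over local background (x axis, log) at each member region within 5 kb of a start, in replicate 1 (filled circles) and replicate 2 (open squares), grouped and coloured by gene group; distances are given for genes with more than 1 region, and the regions shared by Hspd1 and Hspe1 and by Psmc2 and Dnajc2 are drawn for each gene. Psmd3, Dnajc13, Dnaja1 and Psme1 lie above 20 in both replicates, and the replicate 1 value is the higher at every region drawn.

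Among genes of the regulatory particle, Psmd3, a non-ATPase subunit of the cap, had the strongest member region of all. It covered chr11:98682046-98683016 (GRCm38), centred 23 bp upstream of the start, enriched 52.2-fold in replicate 1 and 36.3-fold in replicate 2, with summits of 307 and 213 stacked fragments. It ranked 110th of 12925 regions by lower fold. A second region 9.36 kb upstream reached 27.2 and 22.9, with the start of Gsdma nearer, at 8848 bp. Another 17.7 kb downstream, 186 bp from the start of Med24, reached 5.44 and 5.12. The other members of this group with a region near a start had less than 10-fold enrichment in each replicate. Psmc6, an ATPase of the cap, had 8.34 and 8.19 at 16 bp from its start. Psmd2, the subunit that docks ubiquitin-like receptors, had 8.64 and 5.59 at 16 bp. Psmd7, part of the deubiquitinating module, had 6.04 and 5.63. In replicate 1 these 3 were below the median of all regions near a start, and in replicate 2 Psmc6 was above it and Psmd2 and Psmd7 below. Psmd9, an assembly chaperone of the ATPase ring, had 5.51 and 4.08. The ATPase gene Psmc2 shares a divergent promoter with Dnajc2, a ribosome-associated J protein. The same region covered both starts, with its midpoint 133 bp downstream of the Dnajc2 start, and had 6.59 and 4.30.

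The other 8 Psmc and Psmd members had no region within 5 kb. The region listed for the ATPase gene Psmc5 lay 16.8 kb downstream and 24 bp from the start of Smarcd2, a chromatin remodelling subunit. It was one of the few with a higher value in replicate 2, 20.5 against 12.9 in replicate 1, and its summits were 346 bp apart. Psmd1, a large scaffold subunit of the cap, had 19.3 and 12.5 at 10.8 kb upstream, with the start of 2810459M11Rik nearer, at 7677 bp. The regions of Psmc3 and Psmd4 nearest to their starts, like that of Psmc3ip, lay within 100 bp of the start of another gene. The nearest regions of Psmc1, Psmd12 and Psmd13 had lower folds of 5.27 to 7.68 at 8.84 to 36.8 kb.

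In the proteasome core, strong regions existed but lay far from the genes. Psmb6, which carries a catalytic site, had its region 4.85 kb upstream, at 5.77 and 4.86, and the start of Gltpd2 was nearer to it, at 877 bp. The interferon-induced catalytic subunit Psmb8 had 18.7 and 14.6 at 20.3 kb downstream, with the start of Gm15821 nearer, at 4439 bp. The interferon-induced subunit Psmb10 had regions 11.2 kb upstream, with 10.4 in replicate 1 and 14.3 in replicate 2, and 12.9 kb upstream, with 11.0 and 7.25. Other genes started nearer to both, Slc12a4 at 1444 bp from the first. Among alpha subunits, Psma3 had 22.6 and 14.1 at 12.7 kb. Psma5 had 22.3 and 15.6 at 29.6 kb, with the start of Gm12523 nearer, at 13.6 kb. Psma8, the testis-specific alpha subunit, was listed for a region 77.1 kb away that lay 33 bp from the start of Taf4b, with 26.8 and 18.2. Psma1, Psma6, Psmb1 and Psmb3 had lower folds between 4.46 and 9.33, at 8.36 to 48.7 kb.

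The activator genes Psme1 and Psme2, which encode the interferon-inducible cap, lie side by side and had 3 regions between them and their neighbours. At Psme1 the region chr14:55577973-55578546, centred 101 bp upstream of the start, had 24.5 in replicate 1 and 20.5 in replicate 2. The region chr14:55591016-55592083, 436 bp upstream of Psme2, had 21.2 and 12.1, but its midpoint was nearer to Rnf31, a ubiquitin ligase gene on the opposite strand, at 159 bp. The strongest of the 3 lay 25.8 kb from that Psme1 start, at Irf9, a transcription factor gene of interferon signalling. It was centred 165 bp from the Irf9 start and had 38.7 and 32.0. Psme3, the gene of the nuclear activator, had its nearest region at 14.04 kb with 6.25 and 6.40, and that region lay 33 bp from the start of Becn1, an autophagy gene.

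**Figure D3:**
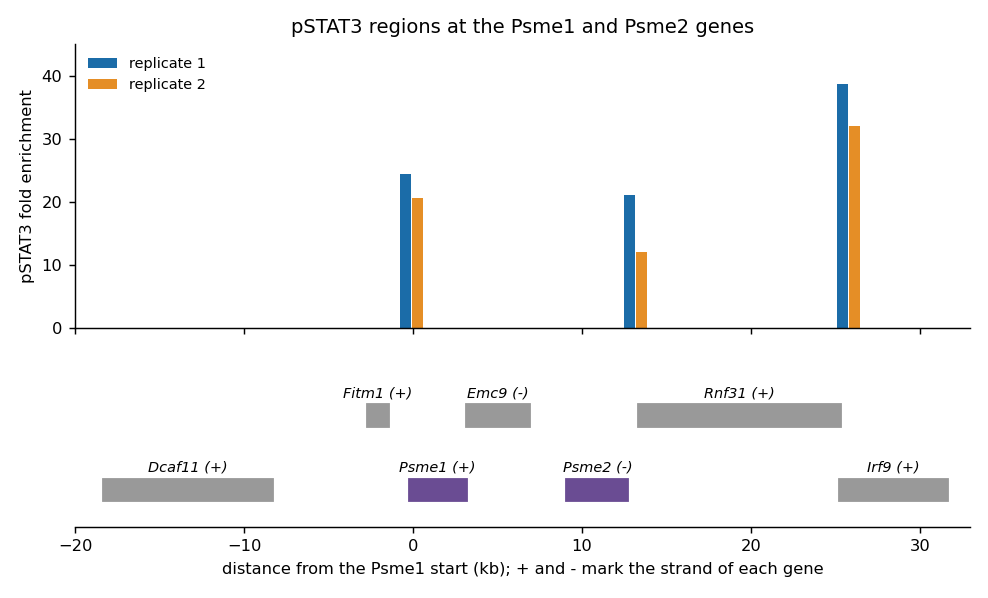
Upper panel, pSTAT3 fold enrichment (y axis) in replicate 1 and replicate 2 at the regions of the Psme1 and Psme2 locus, and lower panel, the genes there from RefSeq with their strand, against distance from the listed Psme1 start nearest to its region (x axis, kb). The 3 regions sit at the starts of Psme1, of Psme2 and Rnf31, and of Irf9, with replicate 1 values of 24.5, 21.2 and 38.7.

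Dnaj genes formed the largest group with regions at starts. Dnajc13, an endosomal J protein that works in receptor recycling, had 34.3 in replicate 1 and 27.2 in replicate 2 at 40 bp from its start (chr9:104262358-104263369). Dnaja1, a cytosolic partner of Hsp70, had 33.1 and 22.5 at 15 bp upstream (chr4:40721965-40723123). Dnajc8, a spliceosome-associated protein, had 19.4 and 18.8 at 4 bp. These 3 regions were above the median of all regions near a start in both replicates. Dnajc24, an enzyme of diphthamide synthesis, had 15.9 and 11.7 at 47 bp, with the start of Dcdc5 on the opposite strand nearer, at 26 bp. Dnaja3, the mitochondrial J protein, had 13.4 and 10.9 at 264 bp upstream.

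The stress-induced cytosolic gene Dnajb1 had a modest region, 7.91 and 6.53 at 155 bp upstream. Dnajb5 had 13.9 and 7.21 at 14 bp. Dnajc7, which links Hsp70 and Hsp90, had 3 regions within 5 kb, at 6.19 to 7.83 by lower fold, and a stronger one of 19.9 and 17.4 at 14.03 kb. The last lay 4148 bp from the start of Cnp, the gene of a myelin enzyme. The other 6 genes with a region within 5 kb, Dnaja2, Dnajb11, Dnajb14, Dnajc2, Dnajc11 and Dnajc14, had lower folds of 4.30 to 6.34 there. Dnajb6, which holds back protein aggregation, had 12.1 and 9.22 inside the gene, 7.66 kb from a listed start. For Dnajb4 the listed region was 54.6 kb away, with 28.0 and 20.0, and the start of Gm16198 was nearer, at 2272 bp. The separate peak lists held weaker peaks at a Dnajb4 start, 5.93 in replicate 1 and 4.61 in replicate 2. For the sperm gene Dnajb13 the nearest region lay 53 bp from the start of Coa4, with 17.4 and 10.8. The regions of Dnajb12, Dnajc18, Dnajc21 and Dnajc22 had lower folds of 4.49 to 7.52 at 7.003 to 40.04 kb. Another gene's start was nearer to each, that of Rad1 at 887 bp for Dnajc21 and of Spats2 at 235 bp for Dnajc22.

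In the Hsp group the constitutive Hsp70 gene Hspa8 and the inducible Hsp90 gene Hsp90aa1 stood first near a start. Hsp90aa1 had 16.1 in replicate 1 and 14.7 in replicate 2 at 69 bp (chr12:110695653-110696725). Hspa8 had 20.4 and 14.6 at 245 bp upstream (chr9:40800073-40801405). Hspa8 also had the most regions of any member, 5 within 25 kb, of which the weakest, 4845 bp upstream, had 3.28 and 2.82, the lowest value among all member regions within 5 kb. Hspd1 and Hspe1, the mitochondrial chaperonin and its lid, share a divergent promoter, and the region between their starts (chr1:55087902-55088286) had 13.9 and 6.91. Hspb6, a small heat shock protein, had 13.1 and 9.02 at 474 bp. Hspa13, an Hsp70 relative of the microsomes, had 9.10 and 7.68 at 136 bp, Hspa2 had 6.12 and 4.61 at 599 bp, and Hspb11 had 7.70 and 6.40 at 4.10 kb.

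Several well-known stress genes had regions only at a distance in the table. Hspb8, a small heat shock protein of selective autophagy, had 28.8 and 24.5 at 7.94 kb downstream of its start, besides 6.55 and 5.99 at 5.44 kb. For Hspb2 the listed region had 28.2 and 24.1 but lay 24.5 kb away and 70 bp from the start of Dixdc1. Hspb1, the best-known small heat shock gene, had 10.3 and 7.42 at 8.08 kb upstream, with the start of Gm22450 nearer, at 4185 bp. Hspa5, the Hsp70 of the endoplasmic reticulum, had 12.1 and 7.68 at 9.46 kb. Hsp90ab1, the constitutive Hsp90 gene, had 7.44 in replicate 1 and 8.69 in replicate 2 at 11.5 kb upstream. The start of Gm17080 was nearer to that region, at 1377 bp. Hsp90ab1 also had 13.0 and 9.61 at 13.98 kb downstream, where the start of Nfkbie was 40 bp away. The nearest regions of Hspa1l, Hspa14 and Hspbp1 had lower folds of 8.70, 5.00 and 5.63 at 28.3, 15.0 and 24.8 kb. Starts of Vars, Suv39h2 and Ppp6r1 were nearer to them, at 3, 151 and 1204 bp. In the separate peak lists, Hsp90ab1 and Hspbp1 had a peak within 1 kb of a start in both replicates. Hspa5 and Hspa14 had one in replicate 1 alone, and Hspb1, Hspb2, Hspb8 and Hspa1l had none.

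Of the chaperonin genes, 3 had a region at the start. Cct3 had 14.2 in replicate 1 and 10.7 in replicate 2 at 369 bp upstream, with the start of Tsacc nearer, at 91 bp. Cct4 had 14.1 and 7.29 at 37 bp. Cct7 had 6.92 and 5.63 at 254 bp, with summits 487 bp apart, the widest gap among member regions. Cct2, Cct6a, Cct6b and the Cct8 relative Cct8l1 had lower folds of 4.86 to 8.19 at 16.2 to 31.4 kb. Another gene's start was nearer for Cct6a, Cct6b and Cct8l1, at 8914, 5 and 757 bp.

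For the 37 members without a region within 5 kb, the nearest one was 5.44 to 77.1 kb away, at a median of 17.0 kb. In 28 of them another gene's start was nearer to the region, and in 2 the region lay inside a transcript of the member. These counts were made for members only. The median lower fold was 6.88 for the 36 member regions within 5 kb and 7.29 for all 102, beside 7.48 for all 12925 regions.

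**Figure D4:**
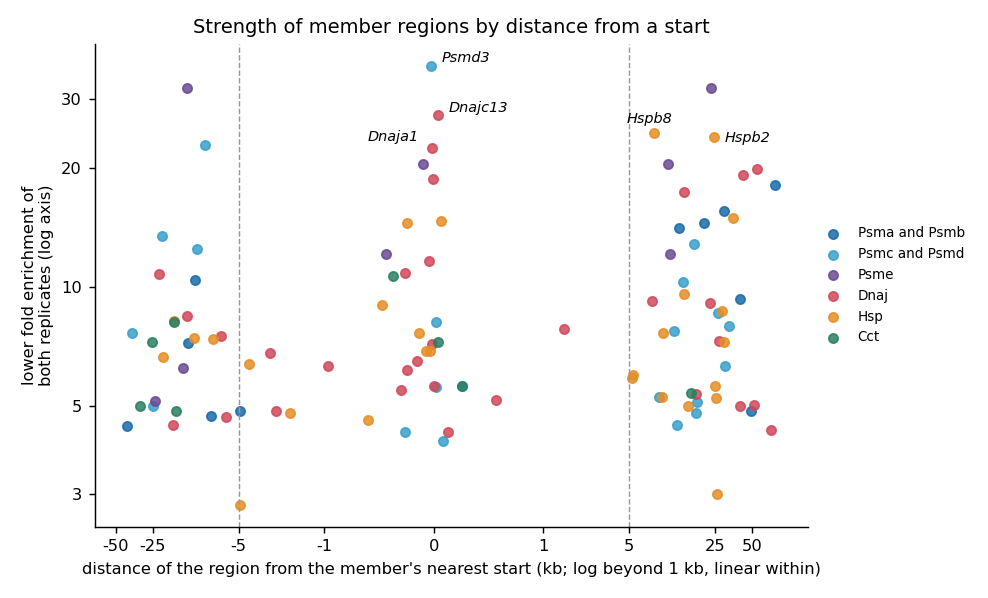
Lower fold enrichment of both replicates (y axis, log) at every pair of a member and a listed region, against the distance of the region from the member's nearest start (x axis, kb, negative upstream; linear within 1 kb and log beyond), coloured by gene group; dashed lines mark 5 kb. Regions above 20 occur at starts, as for Psmd3 and Dnajc13, and at a distance, as for Hspb8 and Hspb2, and a region listed for 2 members is drawn for each.

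Both replicates gave a peak at all member regions within 5 kb, which a table of regions reproducible between both requires. The fold was higher in replicate 1 at each of the 36. Replicate 2 was higher at 4.78% of the 5005 regions near any start. The median log2 ratio of replicate 1 to replicate 2 was 0.41 with an SD of 0.26 over member regions, and 0.41 with an SD of 0.26 over all regions near a start. Over all 102 member regions replicate 2 was higher at 7.

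**Figure D5:**
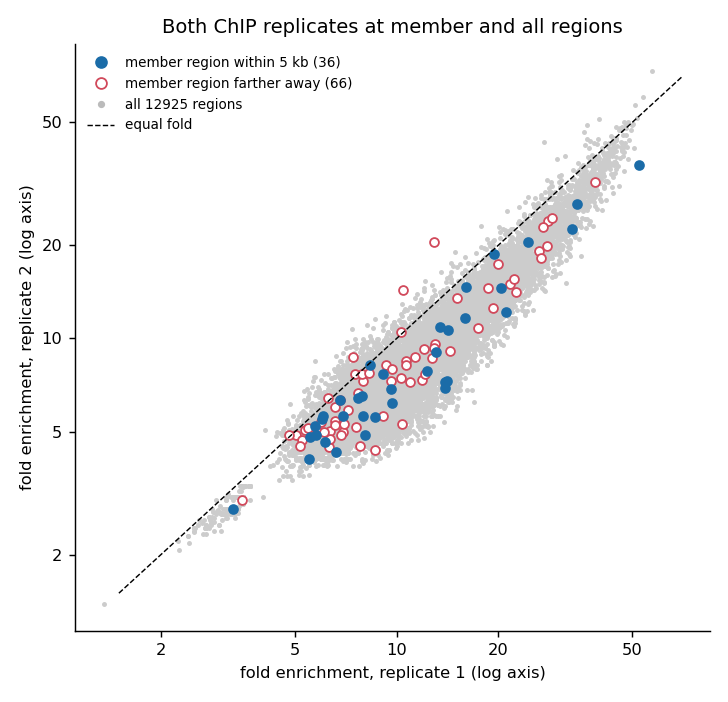
Fold enrichment in replicate 2 (y axis, log) against replicate 1 (x axis, log) for the 36 member regions within 5 kb of a start (filled), the other member regions (open) and all 12925 regions (grey), with a dashed line at equal values. Most member regions lie below the line, as most of all regions do; 7 lie above it, those of Psmc5 and Psmb10 farthest.

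The separate peak lists held weaker peaks at many more of these starts. Peaks were searched around RefSeq starts of the 108 family genes with a promoter entry, in the region table or not. A replicate 1 summit lay within 1 kb of 66 genes, or 61.1%, beside 37.8% of 17492 protein-coding genes. A replicate 2 summit lay within 1 kb of 48 genes, or 44.4%, beside 23.7% of all. Both lists had one at 46 genes, and 40 genes had none in either. Peaks in both lists within 1 kb were not counted over all genes, so this count and those by group describe these genes only. By group, both lists had a peak at 16 of 37 Dnaj genes, 8 of 24 Hsp genes, 8 of 18 Psmc and Psmd genes, 6 of 15 Psma and Psmb genes, 5 of 8 Cct genes and 3 of 6 Psme genes. The replicate 1 list had one at 11 of 15 Psma and Psmb genes and 11 of 18 Psmc and Psmd genes. It had one at 23 of 37 Dnaj genes, 12 of 24 Hsp genes, 6 of 8 Cct genes and 3 of 6 Psme genes. In the region table no Psma or Psmb gene had a region within 1 kb, so the low count of this group holds for that table only.

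These extra peaks were low. A strong reproducible peak places a gene in the region table, so low values are built into the choice of genes outside it. Other genes outside the table were not measured for comparison. Of the 52 family genes with a promoter entry that are not in the region table, 13 had a peak within 1 kb in both lists, 13 in replicate 1 alone and 26 in neither, and no peak exceeded 6.82 in replicate 1 or 4.96 in replicate 2. Hsp90b1, the Hsp90 of the endoplasmic reticulum, had 6.11 in replicate 1 and 3.44 in replicate 2. Hspa4 and Hsph1, nucleotide exchange factors of Hsp70, had 4.70 and 3.96, and 4.91 and 3.27. Cct8 had 5.73 and 3.90. The interferon-induced core gene Psmb9 had 4.46 and 3.99, while its partner Psmb8 had a peak 46 bp upstream in replicate 1 alone, at 4.37. The nearest peaks of Psmb10 lay 95 bp upstream in replicate 1, at 2.92, and 597 bp downstream in replicate 2, at 3.55. For Psmb6 they lay 122 and 90 bp upstream, at 3.58 and 3.96. At the start of Hspa5 a peak of 4.23 was in replicate 1 alone, and Dnajb6 had 4.27 and 2.33. Hspa1a and Hspa1b, the heat-inducible Hsp70 genes, had no peak within 5 kb of a start in either list. They are near-identical copies, and what was done with reads that match both is not stated in the labels or headers. For Hspa9, the mitochondrial Hsp70, no start was used here.

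Related genes outside the naming rule were counted in the same way. The list held 69 names of ubiquitin, proteasome assembly, cochaperone and stress response genes, of which 67 matched the annotation and 41 were in the region table. A region lay within 5 kb of a start in 14, which is 34.1% of those in the table, beside the 42.6% of all protein-coding genes above. Within 1 kb there were 11 of the 41, beside 30.1% of all protein-coding genes in the table. With the peaks of replicate 1 alone 32 of these 41 genes had a summit within 5 kb, beside 71.7% of all. With those of replicate 2 alone 23 of the 41 had one, beside 57.7% of all. The median lower fold of their 17 regions was 7.51. Ubb, a polyubiquitin gene, had 30.0 in replicate 1 and 23.0 in replicate 2 at 70 bp. Uba1, the main ubiquitin-activating enzyme, had 18.9 and 17.4 at 4 bp. Clpp, the mitochondrial matrix protease, had 15.5 and 13.4 at 16 bp, and Pdia4, a disulfide isomerase of the endoplasmic reticulum, had 16.5 and 12.9 at 4.16 kb. The ubiquitin and ribosomal fusion gene Rps27a had 13.2 and 10.1. Ptges3, an Hsp90 cochaperone, had 12.4 and 7.98, Uchl5, a deubiquitinase of the cap, had 11.5 and 7.98, and Ddit3, the stress transcription factor also called CHOP, had 11.7 and 7.67. Atf6, Calr, Atf4, Chordc1 and Nfe2l1, the last a regulator of proteasome genes, had lower folds of 4.70 to 7.01.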

How the data were processed

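pSTAT3 ChIP-seq was analysed in 2 ChIP libraries of CNTF-treated oligodendrocyte progenitor cells. The 2 inputs were not analysed here. Per the submitters' processing notes, CASAVA 1.8, Bowtie2 and MACS2 were used on GRCm38.p3, with options not given in the sources used here. For each ChIP library a peak list was deposited, together with 1 table of regions reproducible between both. In the lists, the pileup signal at each summit and the fold enrichment, a ratio to local background, are the authors' values per the file headers. The deposited −log10 p-values and −log10 q-values stand in columns with damaged headers and were recognised from their values. The table's deposited adjusted p-value column holds the IDR, at most 0.05. Its columns headed fold enrichment and pileup equal, within 0.001, the −log10 p averaged over replicates in 12924 of 12925 regions, and were not used as such, and its summit column is the midpoint in all 12925. No other per-sample columns were left unused. Read numbers are not given in the sources used here; the caller's lowest background is the only sign of depth.

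Python 3.11.15, numpy 2.4.6, pandas 2.3.3 and matplotlib 3.10.9 were used. Each region took the strongest peak of each replicate that shared at least 1 bp with it. Distances run from the midpoint to the nearest listed transcript start, and positions are 1-based. Chromosomes other than 1 to 19, X and Y were left out. Reference genes and promoters came from RefSeq (GRCm38.p6), matched by symbol, the same assembly at a later patch. Counts and medians were set beside those over all genes or regions, with no test, since there is 1 group of 2 libraries. Overlap and placement were tested on simulated data.

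The members and gene lists were chosen with earlier results of these data known. Genes named were the 6 strongest of each group within 5 kb, a fixed list of immunoproteasome and heat shock genes, members with a lower fold of at least 20 beyond 5 kb, the 5 with most regions within 25 kb, the 8 strongest related genes, and those at the 5 kb limit; the other members were named to account for all of them. Alternatives were windows of 1 and 25 kb, an IDR of 0.01, a −log10 q of at least 10, each replicate alone, peak summits as positions, other measures of strength, an overlap of 50% of the peak, equal numbers of peaks, and a narrower naming rule.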

Additional observations from a re-analysis of the deposited data

How the results depend on the processing

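The count of 34 members with a region within 5 kb became 58 within 25 kb, and 46 to 54 when the peaks of a single replicate were used in place of regions (54 with replicate 1 alone). It fell to 23 at an IDR of 0.01 and to 23 at a −log10 q of at least 10. The share over all genes was not counted at those 2 settings, within 25 kb or with summits as positions, so the comparison with all genes is not known there. The count was 31 within 1 kb, and 34 with peak summits as positions and with the narrower naming rule. The 14 related genes became 37 within 25 kb and 23 to 32 with a single replicate. The median lower fold of member regions was 0.924 of that of all regions near a start. It was 0.898 to 0.915 with a single replicate, 0.909 by pileup, 0.989 at an IDR of 0.01, 0.967 within 1 kb and 0.972 within 25 kb, so it was below 1 under each of these and under the −log10 q and the stricter overlap. The 44 members with a peak within 5 kb in both lists fell to 23 at a −log10 q of at least 10, and were 42 with equal numbers of peaks. Shares over all genes were not counted for these either. These alternatives differ by construction in the window, the peaks admitted or the number of libraries; no further cause was tested. No paired analysis was possible because no sample values of the inputs were analysed and no result comes from a test. With 2 libraries of 1 group, no spread between cultures, no effect of CNTF and no effect on RNA can be given, and a region between 2 starts cannot be assigned to one gene.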
